A study of Arabidopsis thaliana with 33 samples.

Results

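H2A.Z peaks of arp6 shoots that no wild-type (WT) peak touched were followed here. The arp6 lists held 7301 H2A.Z peaks, 3304 in replicate 1 and 3997 in replicate 2. Of these, 697 peaks of replicate 1 and 1481 of replicate 2 shared not even 1 bp with a peak of either WT list, and these 2178 peaks were kept. They are called outside peaks below, and the remaining 2607 and 2516 arp6 peaks are called peaks on WT peaks. For scale, the 6 H2A.Z lists of the study held 62373 peaks. The members were chosen by the peak positions in the arp6 and WT lists, so their absence from WT is the definition and was not tested.

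The groups used were the single mutants arp6-1 and brm-1, the double mutant arp6-1;brm-1 and WT plants of Arabidopsis thaliana, all grown on soil with 16 h of light and 8 h of darkness. H2A.Z ChIP-seq was done with an H2A.Z antibody on shoots with 4 to 5 leaves, in 2 biological replicates each of arp6, brm and WT, each with its input. MNase-seq had 2 and RNA-seq had 3 biological replicates each of arp6, brm, arp6;brm and WT. Genomic DNA of 50 pooled arp6 plants, from mature rosette leaves, was sequenced once to call deletions. Both mutants were represented by 1 allele. The labelled tissue was set against marker genes in the arp6 RNA table. The leaf genes RBCS1A, CAB1, PSBO1 and LHCB2.1 averaged 12.3, 10.6, 10.3 and 6.41 log2 CPM. The flower genes AP1 and AG averaged -2.62 and -3.41, and the seed genes CRA1 and OLEO1 were not listed. The root gene PYK10 averaged 6.30, so not every marker went with a sample of shoots only.

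H2A.Z is a variant of histone H2A that plants, like other eukaryotes, place in nucleosomes at the start of genes and along genes of low activity. ARP6 is a subunit of the SWR1 remodelling complex, which exchanges H2A for H2A.Z. Plants without ARP6 are known to lose most, but not all, H2A.Z from chromatin. BRM is the ATPase of a SWI/SNF remodelling complex and has no part in SWR1. Pericentromeres are rich in transposons and repeats, carry dense DNA methylation and hold few genes, and H2A.Z is known to be scarce there.

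The arp6 libraries stood apart from the rest before any comparison. The headers gave 7536706 and 6353934 tags for arp6 replicates 1 and 2, against 5553946 to 15765419 for the brm and WT libraries. Only 6.02% and 5.14% of the arp6 tags lay in peaks, against 42.51% and 35.30% in brm and 24.26% and 41.83% in WT. The estimated fragment length was 164 bp in both arp6 libraries and 414 to 458 bp in the others. A 500-bp window of the arp6 lists was expected to hold 30.2 and 25.0 tags and needed 52 and 45 to be called. WT replicate 1 was called with other settings, a 4-fold excess over input but only 1-fold over its surroundings, where the other 5 lists used 3-fold and 4-fold. The part of these differences in the results below was not tested.

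The number of outside peaks depended on the libraries used. Outside peaks were 21.1% of the peaks of arp6 replicate 1 and 37.1% of those of arp6 replicate 2. Without WT replicate 2 the number was 3562, and without WT replicate 1 it was 2361. Leaving out arp6 replicate 2 left 697 and leaving out arp6 replicate 1 left 1481. Merging overlapping members of both lists gave 2055 regions with a total length of 1.29 Mb, of which 112 (0.159 Mb) were held by both lists and 1943 by only 1 list.

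Most outside peaks were narrow. Their median width was 501 bp in both lists, the smallest width present, against medians of 629 and 501 bp for the peaks on WT peaks. The share of exactly 501 bp was 68.9% in replicate 1 and 72.5% in replicate 2 among outside peaks, against 45.5% and 53.7% among the peaks on WT peaks. At the other end, 22 outside peaks of replicate 1 and 8 of replicate 2 were wider than 2 kb, up to 9859 and 4368 bp.

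Some members lay at the edge of the rule. A WT peak lay within 100 bp of 27 outside peaks of replicate 1 and 95 of replicate 2, and 42 and 109 of the peaks on WT peaks were covered by WT peaks over 100 bp or less. A brm peak overlapped 70.4% and 47.4% of the first set, against 78.6% and 65.1% of the second. Most members were farther off: WT peaks were over 5000 bp away from 268 (38.5%) and 480 (32.4%) of them, and the largest gaps were 597634 and 653400 bp. The median gap to WT was 34509.5 and 19028 bp for outside peaks near a centromere, against 1281 and 898.5 bp for those on the arms.

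Outside peaks were gathered around the centromeres. Near was set as within 3 Mb of an approximate centromere midpoint, placed at 15, 3.6, 14, 3.9 and 12 Mb on chromosomes 1 to 5 of TAIR10. By this measure 294 outside peaks of replicate 1 (42.2%, 95% Wilson interval 38.6 to 45.9) and 561 of replicate 2 (37.9%, 35.4 to 40.4) lay near a centromere. Of the peaks on WT peaks, 206 (7.90%) and 240 (9.54%) did. The means were 40.0% ± 3.04 for outside peaks and 8.72% ± 1.16 for peaks on WT peaks (SD, n = 2 lists each), a difference of 31.3 percentage points. Both outside shares were above both other shares, and the exact two-sided permutation test of 2 lists against 2 gave p = 0.333, the smallest it can give. These intervals cover counting error only. The same 6-Mb stretches held 25.2% of the nuclear length and 24.4% of the nucleosome positions, and 10.2% and 10.2% of the brm peaks and 9.75% and 10.4% of the WT peaks. Peaks on WT peaks can lie only where WT peaks do, so the choice of members fixes part of this difference. Of the nucleosome positions near a centromere, 93.4% were outside WT peaks, against 81.1% on the arms. Of all 590282 positions outside WT peaks, 159844 were near a centromere.

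The gradient with distance from the centromere ran in opposite directions for the 2 kinds of arp6 peak. Within 1 Mb of a midpoint, 176 of 184 arp6 peaks of replicate 1 (95.7%) and 263 of 278 of replicate 2 (94.6%) were outside peaks. Between 1 and 2 Mb the outside share was 49.6% and 73.4%, and from 8 to 20 Mb it was 12.3% and 26.1%. Counted per 10000 nucleosome positions, outside peaks of replicate 1 numbered 32.6, 11.9, 8.23, 7.78, 8.54 and 7.06 in bins of 0 to 1, 1 to 2, 2 to 3, 3 to 5, 5 to 8 and 8 to 20 Mb. Those of replicate 2 numbered 48.7, 30.9, 19.9, 21.1, 18.1 and 15.6 in the same bins. The density of outside peaks was thus highest next to the midpoint in both lists and lowest in the outermost bin. From 3 Mb outward it fell steadily only in replicate 2. Peaks on WT peaks went the other way, with 1.48 and 2.78 per 10000 positions in the innermost bin and 50.4 and 44.2 in the outermost. The choice of members fixes much of this contrast and of the outside shares, because peaks on WT peaks need a WT peak. The WT lists held 2 and 2 peaks on chromosome 4 from 3 to 4 Mb, and 2 and 0 on chromosome 5 from 11 to 12 Mb. Peaks of brm outside WT peaks had no such place: they were 18.6% and 18.3% of the brm peaks near a centromere and 17.5% and 16.4% of those on the arms.

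**Figure D1:**
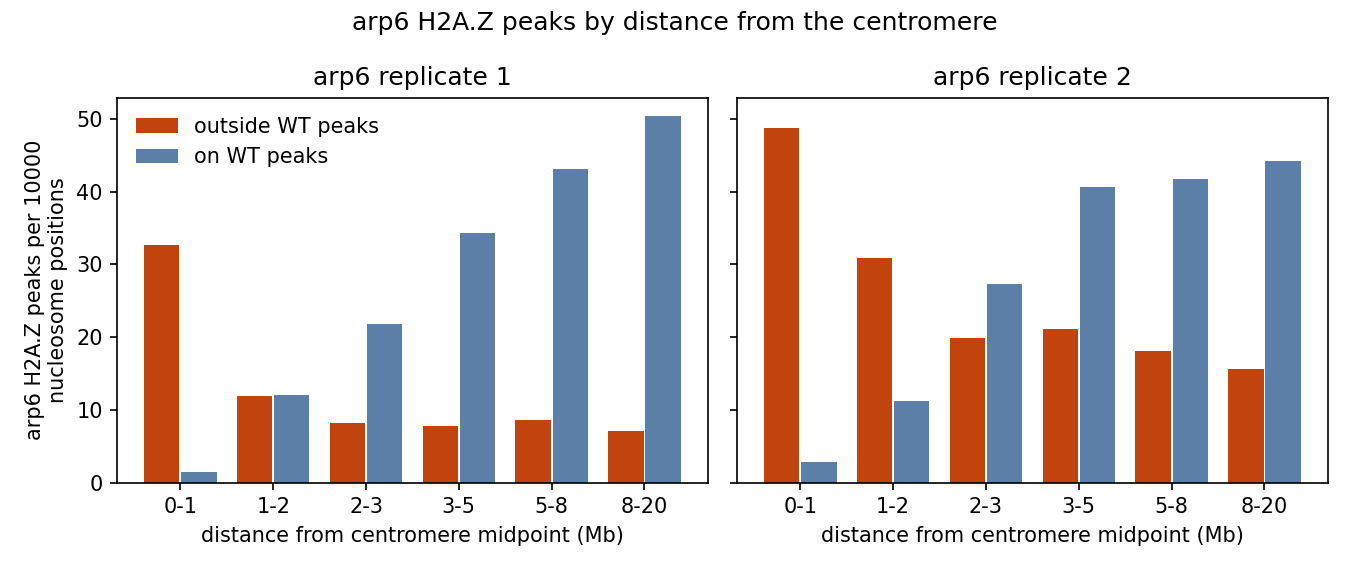
Bars give the number of arp6 H2A.Z peaks per 10000 nucleosome positions (y axis) in bins of distance from the centromere midpoint in Mb (x axis), outside WT peaks in orange and on WT peaks in blue, with 1 panel for each arp6 replicate. Outside peaks are densest within 1 Mb (32.6 and 48.7), where peaks on WT peaks are at 1.48 and 2.78.

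All 5 chromosomes contributed. Chromosome 4 had the largest outside share of its arp6 peaks in both lists, 24.2% and 42.1%, and chromosome 3 the smallest in replicate 1 (19.5%) and chromosome 2 the smallest in replicate 2 (33.4%). On chromosome 4, 63.2% and 52.9% of the outside peaks were near the centromere, against 28.8% and 27.2% on chromosome 1. Of 121 windows of 1 Mb, each held at least 1 outside peak, with a median of 16. The 5 windows with the most outside peaks held 279 of the 2178 (12.8%). The first, chromosome 4 from 3 to 4 Mb, had 72, which were all 31 and all 41 arp6 peaks there. The second, chromosome 5 from 11 to 12 Mb, had 59, which were all 39 and all 20 arp6 peaks there, and 38.1% of its nucleosome positions lay in deletion calls. The others were chromosome 4 from 4 to 5 Mb with 53, chromosome 3 from 12 to 13 Mb with 48 and chromosome 4 from 2 to 3 Mb with 47.

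Replicate agreement was low. Of the outside peaks, 121 of replicate 1 (17.4%, 95% Wilson interval 14.7 to 20.3) overlapped a peak of replicate 2, and 134 of replicate 2 (9.05%, 7.69 to 10.6) overlapped a peak of replicate 1. Among peaks on WT peaks the shares were 30.8% and 31.8%. Between the 2 brm lists they were 72.1% and 80.6%, and between the 2 WT lists 85.7% and 53.6%. Overlap with the partner list was counted on all its peaks, and 113 of the 121 and 122 of the 134 met a partner that was itself an outside peak. The 112 regions held by both lists had a median width of 898.5 bp, against 501 bp for the 1943 held by 1 list. Of the 112, 58 (51.8%) were near a centromere and 36 (32.1%) met a brm peak, against 37.6% and 22.0% of the 1943. On the arms 30 of 54 shared regions (55.6%) met a brm peak, and near the centromeres 6 of 58 (10.3%) did.

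The overlap was read against a base rate in the same unit. Of the nucleosome positions inside outside peaks of replicate 1, 14.9% lay in a peak of replicate 2, where 1.18% of all positions outside WT peaks did. For outside peaks of replicate 2 the share in a peak of replicate 1 was 8.32%, at a base rate of 0.620%. Near the centromeres the shares were 17.5% and 12.3% of positions, against base rates of 1.43% and 0.945%. On the arms they were 12.3% and 5.75%, against 1.09% and 0.499%. Shares and base rates were both higher near the centromeres, so the larger shares there do not by themselves mean closer agreement. Every one of these shares was above its base rate, which includes the outside peaks themselves.

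**Figure D2:**
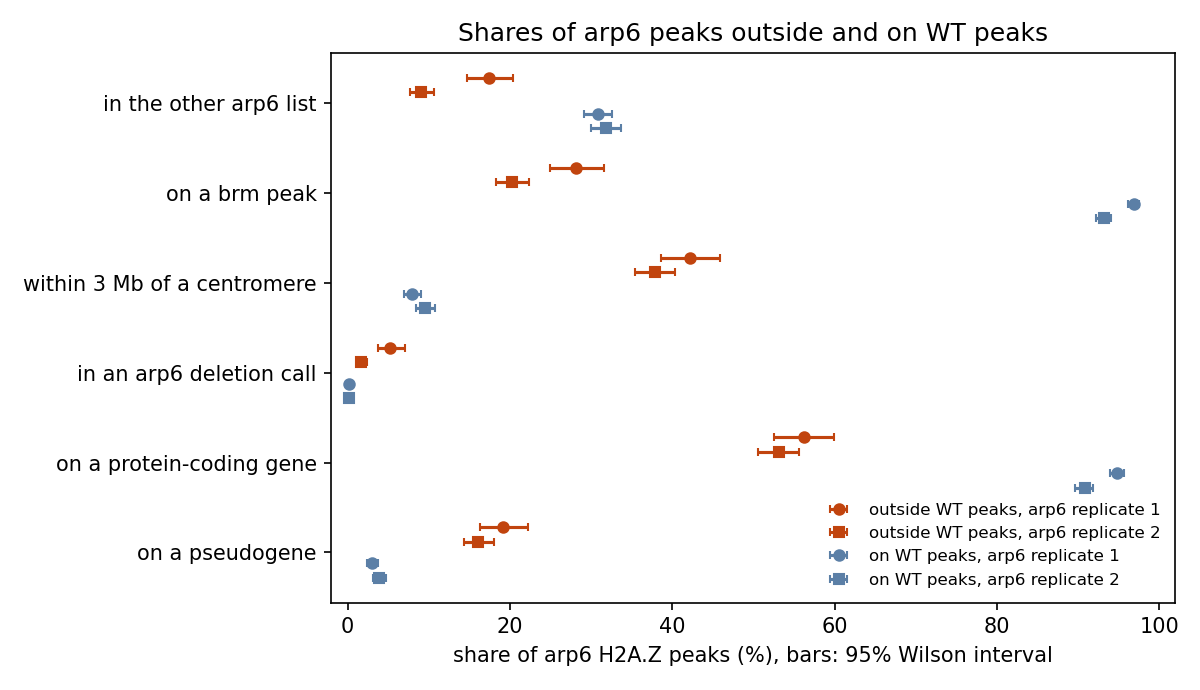
Points give the share of arp6 H2A.Z peaks (x axis, percent) with each of 6 features (y axis), for outside peaks in orange and peaks on WT peaks in blue, with circles for replicate 1, squares for replicate 2 and bars for the 95% Wilson interval. Outside peaks lie lower for the other arp6 list, brm peaks and protein-coding genes, and higher for centromere, deletion calls and pseudogenes.

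Outside peaks were seldom H2A.Z peaks in brm shoots. A brm peak overlapped 196 of 697 outside peaks of replicate 1 (28.1%, 95% Wilson interval 24.9 to 31.6) and 299 of 1481 of replicate 2 (20.2%, 18.2 to 22.3), with a mean of 24.2% ± 5.61 (SD, n = 2 lists). For peaks on WT peaks the shares were 96.9% and 93.2%, with a mean of 95.05% ± 2.61. The difference was -70.9 percentage points (exact two-sided permutation test, p = 0.333, the smallest it can give). The choice of members fixes much of it, because 85.1% to 92.6% of WT peaks, near the centromeres or on the arms, overlapped a brm peak. Both brm lists held a peak at 63 (9.04%) and 87 (5.87%) outside peaks.

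The brm overlap lay on the arms. Near a centromere 24 of 294 (8.16%) and 40 of 561 (7.13%) outside peaks met a brm peak, against 172 of 403 (42.7%) and 259 of 920 (28.2%) on the arms, a difference of -27.8 percentage points (exact two-sided permutation test, p = 0.333, the smallest it can give). By nucleosome positions, 3.74% and 3.39% of those in outside peaks near a centromere were in a brm peak, at a base rate of 2.04% for positions there outside WT peaks. On the arms they were 29.99% and 18.5%, against a base rate of 7.07%. Peaks on WT peaks near a centromere met a brm peak as often as elsewhere, at 95.6% and 94.6%. Among outside peaks over 5000 bp from a WT peak the brm share was 8.96% and 4.79%, and at 500 to 5000 bp it was 40.4% and 24.1%. Outside peaks with a brm peak met the other arp6 list in 19.4% and 12.4% of cases and those without in 16.6% and 8.21% (exact two-sided permutation test, p = 0.667).

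Annotation differed in the same way. By the RefSeq gene table of TAIR10.1, protein-coding genes overlapped 56.2% and 53.1% of outside peaks, against 94.8% and 90.8% of peaks on WT peaks. Pseudogenes, a class that includes many transposon remnants in this annotation, overlapped 19.1% and 16.1%, against 2.95% and 3.86%. Among outside peaks the shares differed with place: near the centromeres 16.3% and 20.3% of outside peaks touched a protein-coding gene and 41.2% and 37.8% a pseudogene, while on the arms 85.4% and 73.2% touched a protein-coding gene and 2.98% and 2.83% a pseudogene. Any annotated gene, pseudogenes included, was touched by 58.5% and 60.8% of outside peaks near the centromeres and by 90.6% and 81.0% on the arms. Peaks on WT peaks near the centromeres kept a high protein-coding share, 80.1% and 71.7%, with 11.7% and 15% on a pseudogene.

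The widest regions held by both lists were taken as those with the longest shorter coverage, and 5 of the first 10 lay in 1 stretch of chromosome 4. This cluster ran from 2919852 to 3048152, a length of 128.3 kb. It held 18 peaks of arp6 replicate 1 covering 52.0 kb and 24 of replicate 2 covering 23.3 kb, and all 42 were outside peaks. The brm lists had 1 peak each there and the WT lists 0 and 1, of 0.501 to 0.754 kb. The table listed 15 genes in it, 5 protein-coding and 10 pseudogenes, of which 1 appeared in the RNA tables. Deletion calls numbered 4 in the stretch. Over the whole of it, the median summit was 224 in arp6 and 216 in WT, and the median log2 fold change over 711 positions was 0.19, against 0.15 over all positions. Single members departed from this: the replicate 2 peak from 2948496 to 2948996 had a median summit of 742 in arp6 and 773 in WT, the highest of that list in WT, and the shared region that holds it, from 2948496 to 2951127, touched a deletion call with 252 in arp6 and 333 in WT. The first-ranked region, from 3038294 to 3048152, was a single peak of 9859 bp in replicate 1 that replicate 2 covered over 4368 bp, with 43752 bp to the nearest WT peak.

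**Figure D3:**
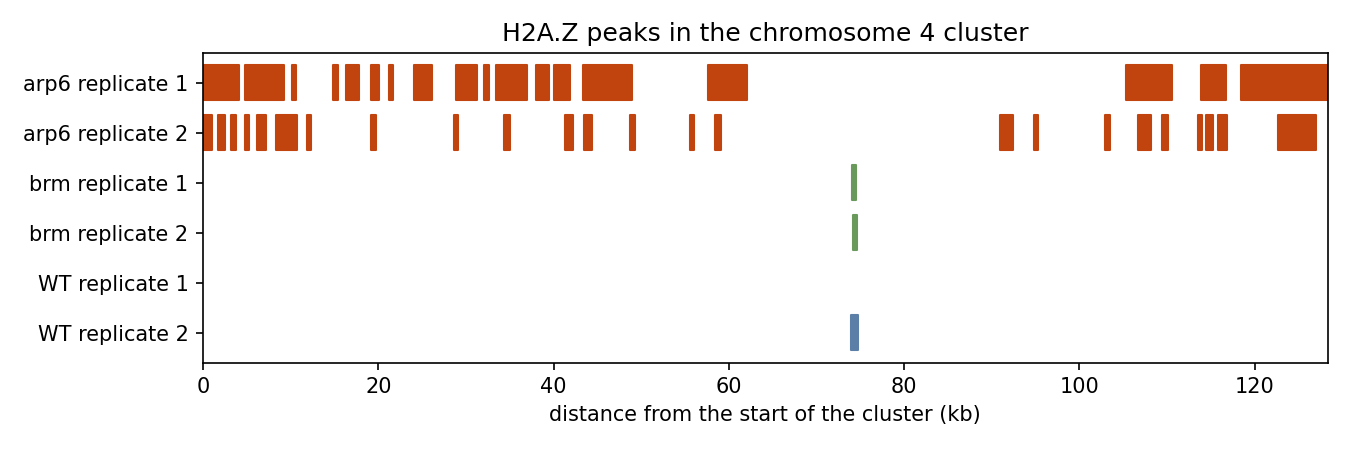
H2A.Z peaks in the chromosome 4 cluster, drawn to scale as bars along the distance from its start in kb (x axis), with 1 row for each library of arp6, brm and WT (y axis). The arp6 rows hold 18 and 24 peaks, and the other rows 0 or 1.

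The remaining 5 of the 10 regions each lay over a protein-coding gene. The region on chromosome 3 from 10700835 to 10704495 (AT3G28550) was covered over 3363 bp in replicate 1 and 3452 bp in replicate 2 and also held a brm peak. The region on chromosome 2 from 11712973 to 11716350 lay at EPR1, an extensin-type protein of the cell wall, and AT2G27385, and held a brm peak too. The region on chromosome 4 from 5310478 to 5313066 (AT4G08380) lay near a centromere and held a brm peak as well. Those on chromosome 1 from 8388383 to 8391298 (AT1G23720) and chromosome 3 from 20200946 to 20204381 (AT3G54580) held no brm peak. Over these 5 regions the nucleosome log2 fold change was 0.02 to 0.29 in arp6, and WT summits of 112 to 213 placed 4 of the 5 below the 200 of all positions.

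Extensins, the repetitive proline-rich proteins of the cell wall, were looked at because of EPR1, so this list was chosen after its values were seen. Of 9 genes that the table names as extensins, EPR1 or HRGP1, outside peaks of replicate 1 overlapped 4 and those of replicate 2 overlapped 5, with 3 in both: EPR1, EXT13 and EXT11. For all 27444 protein-coding genes the counts were 413, 805 and 74. Peaks on WT peaks overlapped 4 and 2 of the 9, brm peaks 3 and 5, and WT peaks 1 and 3 (11.1% and 33.3%). Of all protein-coding genes, WT peaks overlapped 9590 (34.9%) and 15450 (56.3%), so both WT shares of the 9 were below this background. For brm peaks and peaks on WT peaks no such background was taken. EXT11 is a pseudogene in the table, so the 9 are not all among the protein-coding genes. The choice went by gene name, so genes with only a locus code, such as those at the other regions above, were not assessed. In the authors' deposited table for arp6, EPR1 and EXT11 averaged -3.42 and -2.63 log2 CPM without a call, and EXT13 was not listed.

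Deletion calls of the arp6 genome took in a small share of the members. The centre of 36 outside peaks of replicate 1 (5.17%, 95% Wilson interval 3.75 to 7.07) and 24 of replicate 2 (1.62%) lay in a call, against 3 (0.115%) and 5 (0.199%) peaks on WT peaks. The means were 3.39% ± 2.51 and 0.157% ± 0.0592 (SD, n = 2 lists each; exact two-sided permutation test, p = 0.333, the smallest it can give). The difference of 3.24 percentage points was 1.42 without arp6 replicate 1 and 5.05 without arp6 replicate 2. As background, 3.33% of nucleosome positions lay in calls, 8.46% near the centromeres and 1.68% on the arms. For positions outside WT peaks these 2 shares were 8.86% and 1.86%. Among outside peaks they were 11.9% (replicate 1) and 3.74% (replicate 2) near the centromeres, and 0.248% and 0.326% on the arms. The 2 lists thus lay on opposite sides of the background near the centromeres, and both lay below it on the arms. Of the members in calls, 35 and 21 were near a centromere and 27 and 15 were on chromosome 5. None of the 36 met a brm peak (95% Wilson upper limit 9.64%, or 8.33% by the limit of 3 counts in 36), and 1 of the 24 did. The other arp6 list held 8 of the 36 and 7 of the 24.

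A deleted sequence gives no reads, and nucleosome signal at these members varied widely. The median over peaks of the arp6 summit was 72.0 and 90.5, against WT medians of 263 and 209 at the same peaks. Over single positions in these peaks the arp6 median was 64.0 and 68.0, against 8.00 over all positions in calls, where WT had 184. The arp6 log2 fold change had medians of -1.66 and -0.63, from -4.87 to 3.20 in replicate 1 and from -5.11 to 2.82 in replicate 2. It was -2 or below at 14 and 7 of them and above -1 at 14 and 13. In brm, for which deletion calls were not analysed here, the medians were 0.19 and 0.13, and in arp6;brm -1.30 and -0.11.

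Single peaks showed both ends. The member on chromosome 5 from 11897301 to 11897801 had a median summit of 8.00 in arp6 and 385 in WT, with a log2 fold change of -5.11. The one on chromosome 2 from 3661897 to 3662397 had 8.00 in arp6 and 282 in WT, its log2 fold change being -4.96 in arp6 and 0.32 in the double mutant. On chromosome 5 from 11868943 to 11869995 both lists held a peak, with 39.0 in arp6 and 163 in WT. In contrast the member on chromosome 5 from 11884530 to 11885030 had 699 in arp6 and 134 in WT, with log2 fold changes of 3.20 for arp6, 3.0 for brm and 4.00 for the double mutant. An H2A.Z peak was therefore listed in arp6 at places with nearly no arp6 nucleosome signal and at places with more than in WT.

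Most members with a large fall of nucleosome signal from WT to arp6 were in calls. A median log2 fold change of -2 or below was found at 15 and 9 outside peaks, of which 14 and 7 were in deletion calls, and at 0 and 1 peaks on WT peaks. Of these outside peaks 14 and 6 were on chromosome 5. Their median summit was 32.0 and 28 in arp6 and 274 and 250 in WT.

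WT nucleosomes under the members were slightly stronger than under other arp6 peaks. The values were pooled by genotype, so each is 1 data set. The median WT summit signal was 216 over 2877 positions in outside peaks of replicate 1 and 220 over 5228 of replicate 2, against 182 and 202 in peaks on WT peaks. All positions had a median of 200. The means of 218 ± 2.84 and 192 ± 14.1 (SD, n = 2 lists each) differed by 26.0 (exact two-sided permutation test, p = 0.333, the smallest it can give). Near the centromeres outside peaks had WT medians of 230 and 226, and on the arms 204 and 218, where all positions had 204 and 198. Around the centre of outside peaks of replicate 1 the WT median stayed between 204 and 212 from 2000 bp before to 2000 bp after it. In peaks on WT peaks of replicate 1 it was 180 in the 250 bp before the centre, against 200 at the left edge of that range. In replicate 2 the WT median before the centre was 222 in outside peaks and 202 in peaks on WT peaks, against 206 and 204 at the left edge.

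A few members had extreme WT signal. Per peak, the median WT summit was over 400 at 13 outside peaks of replicate 1 and 4 of replicate 2, and at 0 peaks on WT peaks in either list. The highest, on chromosome 5 from 11732193 to 11733108, had 16396 in arp6 and 44647 in WT. Next came 2 peaks on chromosome 4, from 3954739 to 3956307 and from 3953088 to 3953588, with 21561 and 22579 in arp6 and 23655 and 19713 in WT. All 13 of replicate 1 were absent from replicate 2, 12 of them had no annotated gene at them, and 1 met a brm peak. At the low end, 6 and 5 outside peaks had a WT median under 50, against 1 and 0 peaks on WT peaks.

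**Figure D4:**
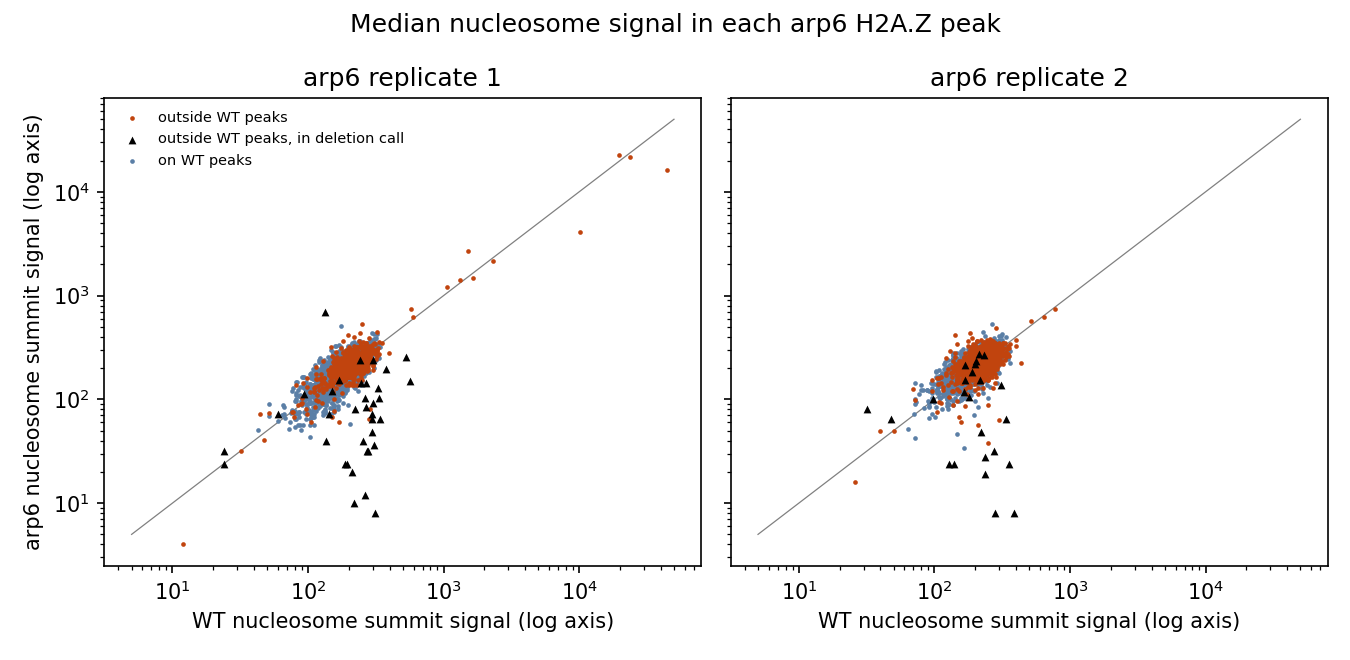
Each point is an arp6 H2A.Z peak at its median nucleosome summit signal in WT (x axis) and arp6 (y axis), both on log axes, with outside peaks in orange, those in deletion calls as black triangles and peaks on WT peaks in blue. The line marks equal signal. Triangles reach down to 8.00 in arp6, and the points over 400 in WT are all outside peaks.

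The median nucleosome change in arp6 was small in both kinds of peak. The median log2 fold change was 0.15 and 0.21 in outside peaks and 0.21 and 0.22 in peaks on WT peaks, a difference of -0.03 (exact two-sided permutation test, p = 0.667). The median over all positions was 0.15. Lower calls, with an FDR under 0.05 and at least 2-fold in the authors' deposited table, took 133 positions (4.62%) and 78 (1.49%) in outside peaks, against 62 (0.554%) and 60 (0.584%) in peaks on WT peaks, where 4.09% of all positions were called lower. Higher calls took 1.39% and 1.59% in outside peaks and 0.991% and 1.06% in peaks on WT peaks, against 1.06% of all positions. Most lower calls in outside peaks were near the centromeres, 123 of 133 and 53 of 78. They took 8.52% and 2.57% of positions in outside peaks there and 0.697% and 0.790% on the arms. The few outside peaks in deletion calls held 97 of the 133 and 33 of the 78, or 54.5% and 41.8% of their own positions. In brm the median log2 fold change was 0.23 and 0.24 in outside peaks and 0.32 and 0.30 in peaks on WT peaks. There 2.45% and 2.25% of positions in outside peaks were called higher (background 2.53%) and 0.674% and 0.725% lower (background 1.65%). The double mutant had 1.93% and 2.08% higher (background 1.93%) and 4.53% and 1.42% lower (background 2.75%). Of its 129 and 75 lower calls in outside peaks, 90 and 25 lay in those in deletion calls.

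RNA at genes near outside peaks was called at about the background rate. A gene counted if its body lay within 1 kb of a peak, and the authors' deposited edgeR tables gave the tests. Outside peaks of either list had 2712 such genes, and 1435 of them (52.9%) were listed in the arp6 table, against 68.9% of the genes near peaks on WT peaks and 58.1% of all genes. In arp6, 93 were called at an adjusted p under 0.05 (6.48%), at a background of 6.03%: 38 were higher (2.65%, background 3.01%) and 55 lower (3.83%, background 3.02%). In brm 211 were called (14.9%, background 13.8%), 114 higher (8.03%, background 7.62%) and 97 lower (6.83%, background 6.14%). The double mutant had 200 calls (13.7%, background 13.3%), 80 higher (5.46%, background 6.16%) and 120 lower (8.19%, background 7.14%). These shares near the background are no result about the members. The median log2 fold change was -0.05 in arp6, where all genes had -0.02. The comparisons share their WT libraries.

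Genes near outside peaks of both lists numbered 209, with 96 listed and 4 called in arp6 (4.17%, background 6.03%). The authors' deposited table gave AT4G08109, a pseudogene, a log2 fold change of -7.04 (edgeR adjusted p = 0.0115) at an average of -2.10 log2 CPM, and -6.81 in arp6;brm (adjusted p = 0.00154). AGO9, an Argonaute protein of small RNA pathways known from ovules, rose by 3.40 in arp6 (edgeR adjusted p = 0.00915) in the authors' deposited table, at an average of 0.00 log2 CPM. AT2G15880 was at -1.08 in arp6 and 1.80 in brm, with edgeR adjusted p = 0.0351 and 1.94e-09 in the authors' deposited tables. AT2G42040 was at 0.77 in arp6 (edgeR adjusted p = 0.0401, the authors' deposited table). These 4 had no common direction, 2 higher and 2 lower. A WT peak was also near AGO9 and AT2G42040.

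Called genes near either list were then ranked by size of change, at an average of at least 1 log2 CPM. Of the first 10, 8 were lower and 2 higher in arp6. The same ranking was not made over all genes, so this split is no result about the members. SEP3, a MADS-box factor of floral organ identity, was at 3.96 in arp6 (edgeR adjusted p = 1.57e-29) and 2.99 in the double mutant, by the authors' deposited tables. AGO3, another Argonaute gene, was at 2.82 in arp6 (edgeR adjusted p = 4.88e-09) and -0.17 in the double mutant, where it was not called. AT1G23130 was at -6.67 in arp6 and -6.40 in the double mutant, by the authors' deposited tables. FRI, a regulator of FLC and flowering time, was at -2.22 in arp6 (edgeR adjusted p = 3.15e-05) and -2.21 in the double mutant (adjusted p = 7.66e-06), and it was the only 1 of the 14 called genes named here that overlapped an arp6 deletion call. SIGE, a sigma factor of the plastid RNA polymerase, and GSTF11, a glutathione transferase, were at -1.90 and -1.97 in arp6. Most of the 10 were not free of H2A.Z peaks in WT. A WT peak was also near AT1G23130, AT2G01090, SEP3, AGO3, FRI, AT5G50100 and SIGE. At AT2G01090, AGO3 and GSTF11 the outside peak did not touch the gene body. None of the 10 was called in brm (background 13.8%). In the double mutant 1 was higher (background 6.16%) and 6 were lower (background 7.14%). The 10 had been chosen by their arp6 calls. In these bulk libraries fewer cells of a type and less RNA per cell cannot be told apart.

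**Figure D5:**
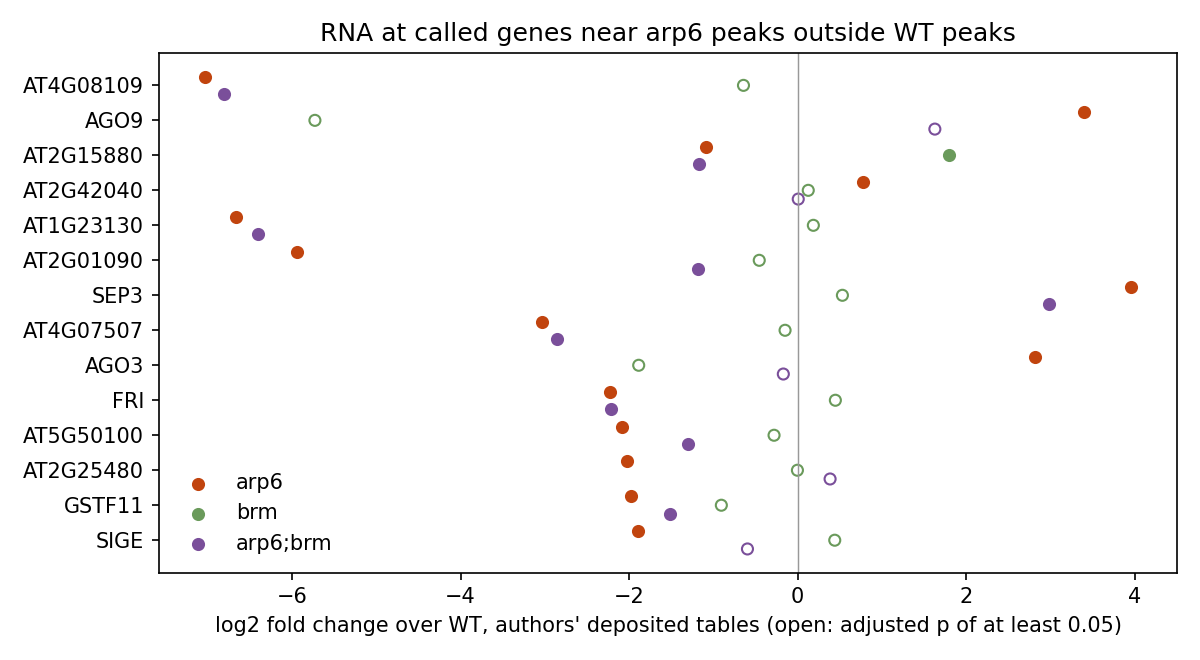
Points give the log2 fold change over WT (x axis) in the authors' deposited tables for the 14 called genes named above (y axis), with arp6 in orange, brm in green and arp6;brm in purple, filled where the adjusted p is under 0.05. AT4G08109 and AT1G23130 are lowest in arp6, at -7.04 and -6.67, and SEP3 is highest at 3.96.

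Of the H2A.Z and SWR1 genes, listed together with INO80, 1 of 10 was called in arp6, where 6.03% of all genes were. ARP6 itself was at -5.73 in arp6 (edgeR adjusted p = 1.54e-44) and -5.598 in the double mutant (adjusted p = 8.2e-53), and 0.27 without a call in brm, by the authors' deposited tables, as the labels would have it. The H2A.Z genes HTA8, HTA9 and HTA11 were at 0.28, 0.10 and -0.09 in arp6, with no call. In brm none of the 10 was called (background 13.8%), and in arp6;brm 4 were lower (background 7.14%): ARP6, SEF, HTA8 and HTA9. Only HTA8 lay near an outside peak, in replicate 2. Of the 8 genes at the 10 widest shared regions, 4 were listed in the arp6 table and none was called.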

How the data were processed

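H2A.Z peak lists, nucleosome tables, RNA tables and deletion calls were used as the authors deposited them. Peaks were called by the authors with HOMER in histone style, each library against its input, per the file headers, and their score column, deposited by the authors, holds the same value in every row. Reads were aligned to TAIR10, per the submitters' processing notes, which name Bowtie2, BWA, TopHat2, HTSeq and SAMtools without versions. The nucleosome tables hold an occupancy signal at the summit, a fuzziness score, log2 fold changes and FDR values (p-values adjusted by the authors), with the replicates of a genotype pooled into 1 data set, per the labels. Their layout is that of DANPOS; the tool and its smoothing are not given in the sources used here. RNA tables deposited by the authors hold edgeR results: a log2 fold change, an average log2 CPM, and p-values with and without adjustment. They give no value per library, and 66.9%, 69.3% and 70.7% of the CPM total (arp6, brm, double mutant) came from 3 counter rows that name no gene and were left out.

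Overlap meant at least 1 bp. A nucleosome position belonged to the peak that held its centre. Peak positions count from 1. Shares and medians were taken per arp6 list and compared over the 2 lists with an exact permutation test (Python 3.11.15, scipy 1.17.1), checked on simulated peaks. Replicate numbers were not used to pair genotypes. Both values of a list come from the same library and are thus paired, which the permutation test does not take into account. A sign-flip test by list, used as the block, keeps this pairing, and its smallest p is 0.5. Genes came from the RefSeq table of TAIR10.1, used for names and overlap only. It has no strand, so a window of 1 kb on either side replaced the planned 1 kb before the start. As a check of coordinates, 114 listed genes wholly in deletion calls had a median arp6 log2 fold change of -2.91, against -0.02 for the rest. Named were the 10 widest shared regions, the 5 fullest windows and called genes at peaks of both lists. Also named were the 10 largest called changes at an average of at least 1 log2 CPM and genes at the 10 regions. A list of 10 genes of H2A.Z and SWR1, with INO80 among them, was named too. Members and lists were chosen with earlier results of these data known. The lists give no strength per peak, so precision is limited to counts of peaks, and intervals cover counting error only. No genome sequence was used here.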

Additional observations from a re-analysis of the deposited data

How the results depend on the processing

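Of 85 alternatives over 8 results, 77 kept the direction and, for counts, stayed within 1.5 times. The number of outside peaks was 2361 to 3562 with 1 WT list left out, 697 to 1481 with 1 arp6 list, and 625 for peaks wider than the most common width. Genes called in arp6 numbered 101 to 171 without 1 WT list, 28 to 69 without 1 arp6 list, 23 for the wider peaks and 167 at an adjusted p under 0.2. The mean share overlapped by the other arp6 list was 13.2%, and 21.6% for the wider peaks. No difference between outside peaks and peaks on WT peaks changed sign: brm overlap ran from -74.4 to -48.0 percentage points, place near a centromere from 20.1 to 42.2, deletion calls from 1.42 to 5.79, the WT summit from 18.0 to 34.0 and the log2 fold change from -0.06 to -0.01. The causes were not tested. With the replicate block by list, each of these 5 differences was unchanged and the exact sign-flip test gave p = 0.5, the smallest 2 lists allow, so no call could change (brm -70.9, centromere 31.3, deletion calls 3.24, WT summit 26.0, log2 fold change -0.03). Restricting the peaks to those met by the other arp6 list was chosen after seeing the data and gave -68.9, 42.2, 5.79, 33.0 and -0.05. With 2 lists a group, no comparison could pass a threshold of 0.05.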
